A study of Mus musculus with 56 samples.

Results

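Wnt ligands are secreted, lipid-modified proteins that bind Frizzled receptors on the same or neighbouring cells. Some act mainly by stabilising beta-catenin, which then works with Tcf and Lef factors at target genes, whereas others act mainly through routes that do not need beta-catenin, such as planar polarity. In skin, Wnt signals are needed to form hair follicles and to start a new growth phase, in which the dermal papilla signals to the stem cells of the hair germ above it. The genes described here are 10 of the 24062 gene symbols in the expression table of the series, taken by name: Wnt2b, Wnt3, Wnt3a, Wnt4, Wnt5a, Wnt6, Wnt7a, Wnt7b, Wnt10a and Wnt10b. All 10 passed the filter on low values (at least 1 RPKM in at least 2 libraries), as did 4 of 9 other Wnt ligands. The 10 were chosen with earlier results of these data known, so the share of them called is a description.

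The libraries came from back skin of mice at postnatal day 22 that are labelled CD1 and carried K14-H2BGFP, Crabp1-GFP and Lef1-RFP together. All 3 reporters were shared by every group, and cells were separated by sorting. The 7 populations were dermal papilla (DP), hair germ stem cells (HGSC), bulge stem cells (BuSC), epidermis (Epi), follicle cells (Foll, labelled as upper hair follicle), dermal fibroblasts (DF) and a negative fraction of mixed cells (Neg). Each population was sampled in 4 skin zones with 2 replicates per zone, which gave 8 libraries per population, untreated apart from the sort. The batch label repeats the zone, which leaves the effects of the pair impossible to separate, and where the zones lay is not stated. RNA was amplified before library construction. Values are RPKM (reads scaled to gene length and library size), and levels are set side by side between genes on that scale. Whether reads followed gene length after amplification was not tested.

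The libraries held 3.24 to 87.8 M reads each. Defining markers set DP and DF apart but not every keratinocyte population. The summed RPKM of 10 papilla markers was 910 to 1177 in DP and at most 108 in any other population, and that of 8 fibroblast markers was 40090 to 52765 in DF. Bulge markers summed to 2051 to 4023 in BuSC, overlapping with 1419 to 3116 in Epi, and hair germ markers to 369 to 527 in HGSC, overlapping with 368 to 443 in DP. In 52 of 56 libraries the most similar library over all tested genes was of the same population. The exceptions were Epi zone 3 replicate 2, which was closest to a Foll library, Foll zone 1 replicate 2, which was closest to an HGSC library, and Foll replicate 2 of zones 3 and 4, which were closest to an Epi library. Fibroblast markers stood at 33.9 to 243 in HGSC, against 1098 to 8528 in BuSC. In sorted bulk samples, fewer cells of a type and less RNA per cell cannot be told apart.

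The 10 genes lie on 7 chromosomes, and only Wnt6 and Wnt10a among them are direct neighbours. In GENCODE M21 on GRCm38, Wnt6 covers chr1:74771892-74785322 and Wnt10a covers chr1:74791516-74804179, both on the plus strand. The gap between them is 6696 bases in RefSeq. Wnt10b covers chr15:98770712-98778150 and Wnt3a covers chr11:59248033-59290752, both on the minus strand, and Wnt5a covers chr14:28504750-28527448 on the plus strand. Exons of Wnt5a overlap Gm2670 and those of Wnt7b overlap AU022754, each on the opposite strand. Reads of these overlaps cannot be assigned to 1 strand here.

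Start-site sequence was taken from RefSeq (GRCm38.p6) for 7 of the 10 genes, as the 250 bases before the start. It is shown for the ligand with the highest level relative to the rest in DP, for one of the HGSC ligands and for an Epi ligand, at chr1:74771642-74771891 (plus strand), chr15:98778151-98778400 (minus strand) and chr11:59290752-59291001 (minus strand). Capitals mark matches to GCCNNNGGC, the palindromic site of Tfap2 factors, a motif searched because Tfap2c and Tfap2a had the profiles most like that of Wnt10a. The start of Wnt10a itself was not examined, nor were those of Wnt5a and Wnt7b.
Wnt6: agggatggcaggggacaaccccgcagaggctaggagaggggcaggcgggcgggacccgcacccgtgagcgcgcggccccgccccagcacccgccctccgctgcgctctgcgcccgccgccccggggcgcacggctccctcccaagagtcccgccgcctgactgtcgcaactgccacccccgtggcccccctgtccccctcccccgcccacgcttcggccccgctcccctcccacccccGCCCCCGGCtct
Wnt10b: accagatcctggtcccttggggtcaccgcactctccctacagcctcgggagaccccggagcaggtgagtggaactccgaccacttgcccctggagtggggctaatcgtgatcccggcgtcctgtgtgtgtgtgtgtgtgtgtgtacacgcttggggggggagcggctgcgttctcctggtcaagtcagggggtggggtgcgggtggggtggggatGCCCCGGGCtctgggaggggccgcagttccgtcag
Wnt3a: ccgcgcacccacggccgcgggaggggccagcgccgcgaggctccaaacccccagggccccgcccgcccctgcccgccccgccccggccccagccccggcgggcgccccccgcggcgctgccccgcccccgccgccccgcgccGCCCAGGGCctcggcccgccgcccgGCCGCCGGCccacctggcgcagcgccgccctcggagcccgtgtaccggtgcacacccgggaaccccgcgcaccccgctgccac
The motif was found in 5 of 7 ligand promoters (Wnt3, Wnt3a, Wnt4, Wnt6 and Wnt10b) and in 13.7% of all 32851 promoters of that length. The same promoters were rich in G and C, at 66.8% to 87.6% against a median of 52.4% over all promoters. CTTTGAA or CTTTGAT, the core bound by Tcf and Lef factors, was searched on both strands and found in 0 of 7 ligand promoters and in 7.48% of all promoters. TATAAA was found in 0 of 7 and in 12.4% of all. These are letter matches in a short window only.

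**Figure D1:**
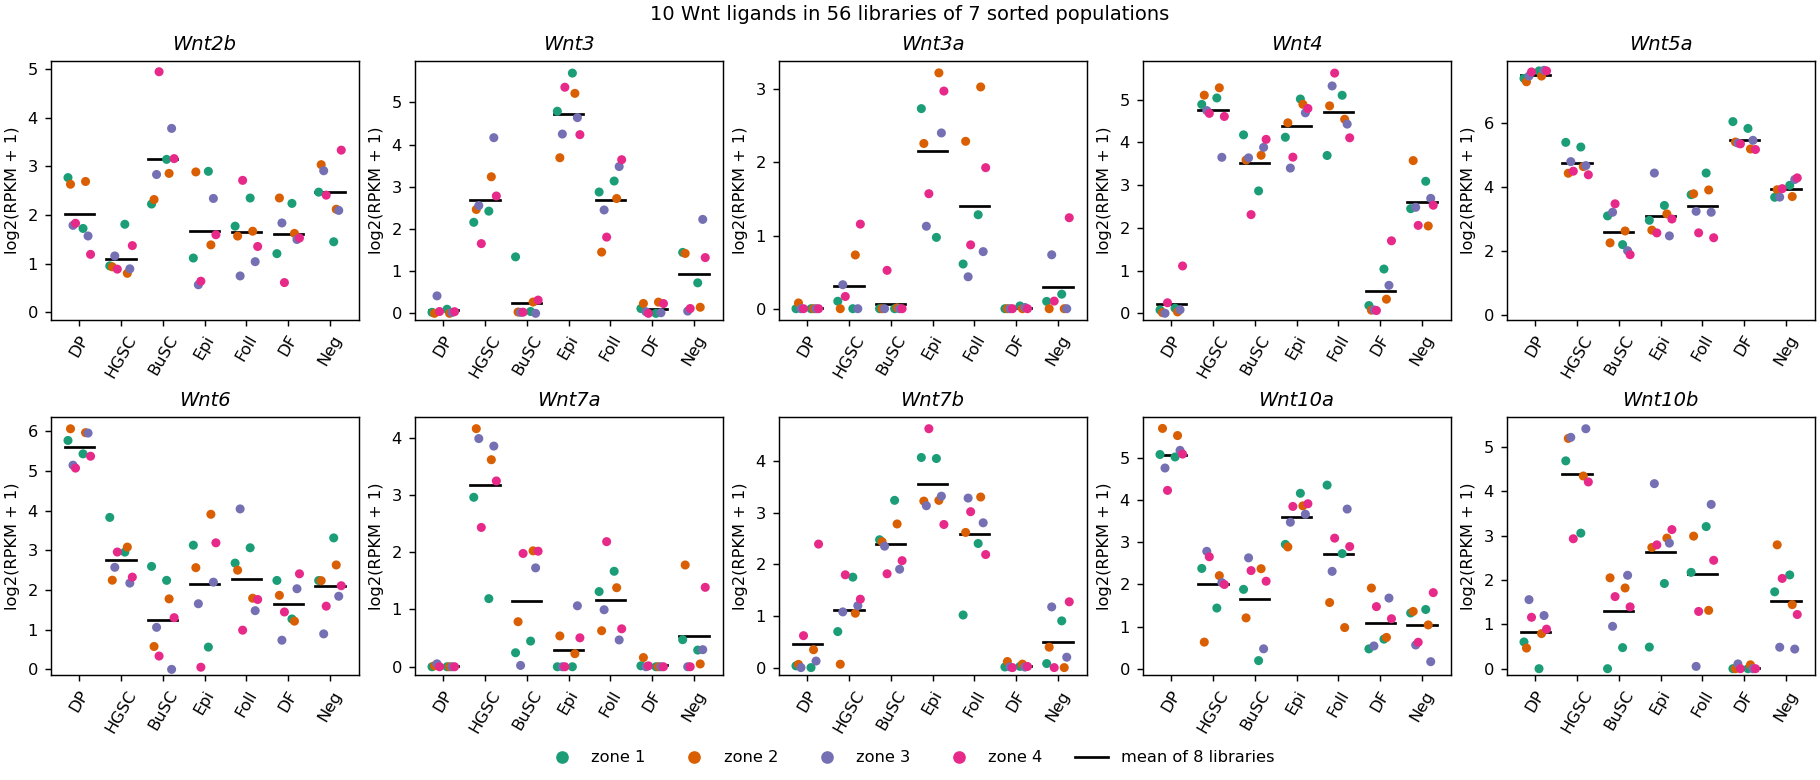
Level of each Wnt ligand in every library, as log2(RPKM + 1), by sorted population (x axis); points are libraries coloured by zone and black lines are means of 8 libraries. Wnt5a, Wnt6 and Wnt10a are highest in DP, Wnt7a and Wnt10b in HGSC, Wnt3, Wnt3a and Wnt7b in Epi, and Wnt2b in BuSC.

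The total level of the 10 ligands differed between populations, and so did the ligand that made up most of it. The summed ligand RPKM averaged 269 ± 19.8 in DP, 106 ± 18.2 in HGSC, 39.3 ± 8.29 in BuSC, 100.03 ± 20.5 in Epi, 73.2 ± 12.9 in Foll, 50.7 ± 10.4 in DF and 34.8 ± 8.59 in Neg (SD, n = 8 libraries each). The lowest DP library (240) exceeded the highest library of every other population, the next being an Epi library at 135. These sums are on RPKM as deposited, and the order of the populations below DP depends on scaling. Median-of-ratios factors were 0.545 to 0.612 in DF and 1.23 to 1.44 in HGSC. With that scaling Wnt5a alone averaged 76.5 in DF and 20.5 in HGSC. Wnt5a made up 67.6% ± 7.15 of the sum in DP and 86.8% ± 5.23 in DF (SD, n = 8), and it led in 8 of 8 libraries of both, and of Neg. In DP, Wnt6 and Wnt10a added 18% and 12.5%. The epithelial mixtures were more even. In HGSC, Wnt4 (26.2%), Wnt5a (25.6%) and Wnt10b (21.2%) led in 3, 2 and 3 of the 8 libraries. Wnt4 led in 6 of 8 BuSC and 7 of 8 Foll libraries, and Wnt3 in 4 of 8 Epi libraries.

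**Figure D2:**
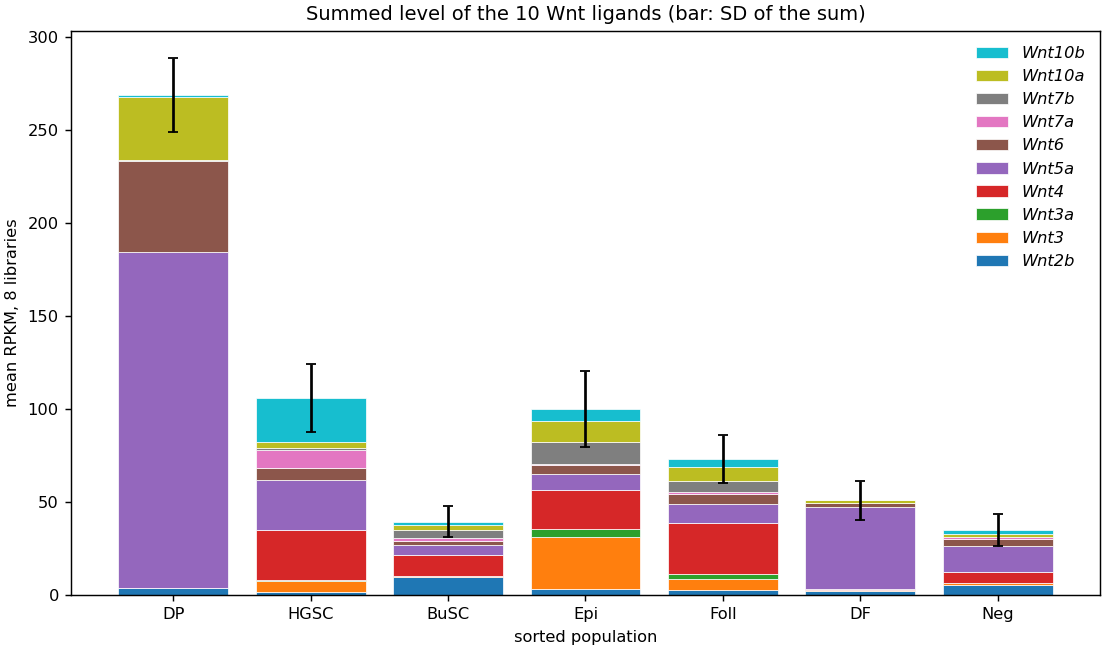
Mean RPKM of the 10 ligands stacked by population (y axis, 8 libraries each); error bars are the SD of the summed level. On RPKM as deposited, the sum is 269 in DP against 34.8 to 106 elsewhere. Wnt5a fills most of the DP and DF columns while the epithelial columns are mixed.

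A difference between populations was called at an adjusted p under 0.05 and an absolute log2 difference of at least 1. Over all 7 populations the moderated F test called 10 of 10 ligands, against 81.8% of all genes tested. Over the 21 pairs of populations, 118 of 210 tests on ligands were called. Of all genes, 30.3% were called for DP against DF, 27.9% for DP against HGSC, 5.85% for HGSC against BuSC and 7.79% for Epi against Foll. The pairs of DP with BuSC, Epi, Foll and Neg had 23.8%, 29.1%, 27.2% and 21.7%, and those of HGSC with Epi, Foll, DF and Neg had 20.7%, 11.8%, 45.5% and 29.4%. The pairs of BuSC with Epi, Foll, DF and Neg had 20%, 12.2%, 39.4% and 23.7%, those of Epi with DF and Neg had 40.1% and 27.5%, those of Foll with DF and Neg had 41.6% and 24%, and DF with Neg had 26.1%. Wnt5a, Wnt6 and Wnt10a were called higher in DP than in each of the other 6 populations, Wnt7a and Wnt10b in HGSC, and Wnt3 in Epi. The top population of Wnt2b, Wnt3a and Wnt7b was called against 5 of 6 others, and that of Wnt4 against 4 of 6. With median-of-ratios scaling BuSC was called against 3 of 6 for Wnt2b, no longer against DP or DF, and Epi against 6 of 6 for Wnt7b.

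Wnt5a, the main ligand of beta-catenin-independent signalling, was the most abundant of the 10 in mesenchyme. It stood at 154 RPKM in the lowest DP library, 183 at the median and 198 in the highest. The other populations had medians of 24.0 in HGSC, 4.45 in BuSC, 6.85 in Epi, 10.4 in Foll, 40.6 in DF and 14.2 in Neg. DP libraries overlapped with none of these, and the highest other library was a DF one at 64.5. Wnt5a was 4.10-fold higher in DP than in DF by means (log2 difference 2.03, SE 0.22, adjusted p = 9.09e-10) and 6.77-fold higher in DP than in HGSC (2.75, SE 0.22, adjusted p = 3.79e-13). With median-of-ratios scaling DP over DF was 2.21-fold (1.16, adjusted p = 6.45e-05). It was the only one of the 10 ligands that was also above 30 RPKM in every DF library. In HGSC it ranged from 19.7 to 40.8 RPKM while papilla markers there summed to 2.05 to 11.9, against 910 to 1177 in DP. The part of other cells in the HGSC values was not tested. DF, HGSC and Neg were next in order, and neither HGSC against DF (-0.72, adjusted p = 0.00420) nor HGSC against Neg (0.82, adjusted p = 0.00187) passed the size threshold. With median-of-ratios scaling the order was the same, but HGSC against DF was called (-1.87, limma adjusted p = 5.54e-09).

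Wnt6, which is known in development from the surface ectoderm, had the highest ratio of the DP mean to the next population, at 7.75 against 4.10 for Wnt5a and 2.93 for Wnt10a. It ranged from 32.6 to 65.6 RPKM in DP with a median of 47.7. Its medians elsewhere were 5.84 in HGSC, 1.27 in BuSC, 4.24 in Epi, 3.56 in Foll, 2.18 in DF and 3.51 in Neg. No library of another population reached the DP range, and the nearest was a Foll library at 15.5. The DP mean was 20.7-fold that of DF (3.94, SE 0.40, adjusted p = 3.72e-10) and 7.75-fold that of HGSC (2.83, SE 0.40, adjusted p = 3.00e-07). With median-of-ratios scaling DP over DF was 11.2-fold. Below DP, no pair of neighbours in the order of levels was called.

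Wnt10a, a beta-catenin-type ligand whose mutations in humans cause ectodermal dysplasias, had 17.7 to 50.7 RPKM in DP with a median of 32.8. The medians were 3.38 in HGSC, 2.96 in BuSC, 12.5 in Epi, 6.04 in Foll, 0.98 in DF and 1.28 in Neg. DP overlapped with Foll alone, through 1 Foll library at 19.4. The DP mean was 26.6-fold that of DF (3.98, SE 0.34, adjusted p = 5.23e-12) and 9.91-fold that of HGSC (3.05, SE 0.34, adjusted p = 1.67e-09). With median-of-ratios scaling DP over DF was 14.2-fold. Epi was second, and DP exceeded it by 1.48 (SE 0.34, adjusted p = 0.000433). Epi over Foll was not called for this gene (0.88, SE 0.34, adjusted p = 0.0717).

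Wnt10b and Wnt7a were highest in HGSC. Wnt10b, a beta-catenin-type ligand that promotes the growth phase in mouse hair follicles, stood at 6.61 to 41.4 RPKM in HGSC with a median of 21.97. Its medians were 0.793 in DP, 1.85 in BuSC, 6.01 in Epi, 3.97 in Foll and 2.02 in Neg. In DF 6 of 8 libraries were at 0, where 3 reads would be worth 0.0336 to 0.0982 RPKM, a floor that covers counting error only. HGSC and BuSC did not overlap (3.08, SE 0.37, adjusted p = 1.21e-07), and neither did DP and HGSC (-3.54, SE 0.37, adjusted p = 5.83e-10). Wnt10b stood at 0.87 ± 0.61 RPKM in DP and 0.0175 ± 0.0326 in DF (SD, n = 8 each), a difference of 0.81 that was not called (SE 0.37, adjusted p = 0.0719). Both means lay below the pseudocount of 1, where the log2 scale understates changes. The ratio of means was 49.7, or 25.8 with median-of-ratios scaling, and the DF libraries held 6 reads of Wnt10b in all.

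Wnt7a, known for dorsal patterning of the limb, ranged from 1.28 to 16.8 RPKM in HGSC with a median of 9.86. The medians were 1.52 in BuSC, 0.0856 in Epi, 1.24 in Foll and 0.227 in Neg, where the highest library reached 2.43. Wnt7a was at 0 in 6 of 8 DP libraries and 5 of 8 DF libraries. The lowest HGSC library overlapped with BuSC, Foll and Neg, and the other 7 HGSC libraries, at 4.4 or more, did not. HGSC exceeded BuSC by 2.02 (SE 0.28, adjusted p = 1.98e-06), and DP was below HGSC by a log2 difference of -3.17 (SE 0.28, adjusted p = 1.22e-11).

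Wnt3, Wnt3a and Wnt7b were highest in Epi. Wnt3, a beta-catenin-type ligand, had 11.9 to 50.8 RPKM in Epi with a median of 25.3. Foll ranged from 1.74 to 11.5 and HGSC from 2.15 to 16.9. Its medians were 0.0223 in DP, 0.0263 in BuSC, 0.0548 in DF and 1.08 in Neg. Wnt3 was therefore present in HGSC and nearly absent in the neighbouring BuSC, a 24.5-fold difference of means without overlap (2.42, SE 0.34, adjusted p = 1.70e-06). The BuSC mean rested on zone 1 replicate 1 at 1.53 RPKM, without which the ratio was 82.6. Epi and Foll did not overlap (2.04, SE 0.34, adjusted p = 5.39e-05). The 3 Foll libraries with the highest Wnt3 (7.80, 10.2 and 11.5 RPKM) were the 3 whose closest library was of another population, and epidermal markers in 2 of them summed to 5961 and 4965 RPKM, against 1266 and 2072 in replicate 1 of the same zones. The part of these markers in the Foll value was not tested, and without those libraries and the Epi one the difference was 2.38.

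Wnt3a, the close relative of Wnt3 that is widely used to activate beta-catenin in culture, ranged from 0.965 to 8.34 RPKM in Epi with a median of 4.03. It ranged from 0.353 to 7.17 in Foll with a median of 1.13, and Epi over Foll fell short of the size threshold (0.75, SE 0.24, adjusted p = 0.0307). It was at 0 in 7 of 8 DP, 6 of 8 BuSC and 6 of 8 DF libraries. Wnt7b, which is known from lung and hair follicle growth, ranged from 5.83 to 23.7 RPKM in Epi with a median of 8.72. Its medians were 5.57 in Foll, 4.26 in BuSC and 1.20 in HGSC. The stem cell pools were therefore ordered the other way round from Wnt3, with HGSC below BuSC and no overlap (-1.26, SE 0.28, adjusted p = 0.00188). In DP, 7 of 8 libraries were at 0.535 RPKM or less, and zone 4 replicate 2 stood apart at 4.25. That library also had the highest Wnt4 of DP (1.154 RPKM), while keratinocyte markers there summed to 24.6, within the DP range of 9.43 to 36.4. The part of keratinocytes in its Wnt7b and Wnt4 values was not tested.

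Wnt4, which is known from kidney and gonad development, was shared by all keratinocyte populations. It stood at 27.1 ± 7.95 RPKM in HGSC, 11.4 ± 4.46 in BuSC, 21.2 ± 8.05 in Epi and 27.4 ± 12.2 in Foll (SD, n = 8 each). DP averaged 0.196 ± 0.391 and DF 0.551 ± 0.766. The keratinocyte populations overlapped with each other and not with DP or DF, where no library exceeded 2.24 RPKM. Of the 4, BuSC was lowest: HGSC exceeded it by 1.22 (SE 0.31, adjusted p = 0.00661), a call lost with a pseudocount of 0.1 or 5.

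Wnt2b was highest in BuSC and was the least uneven of the 10 ligands, with 6 of 21 pairs of populations called, against 8 to 15 for the others. This beta-catenin-type ligand, known from lung and eye development, ranged from 3.67 to 29.7 RPKM in BuSC with a median of 7.03. HGSC lay between 0.743 and 2.5 with a median of 0.925, so the stem cell pools did not overlap (-2.05, SE 0.34, adjusted p = 2.84e-05). Neg was second with a median of 4.42 and BuSC over Neg was not called (0.68, SE 0.34, adjusted p = 0.109). The BuSC library at 29.7 RPKM, zone 4 replicate 1, was also the one with the most fibroblast markers (8528 RPKM). DF, where those markers were at 40090 or more, had 0.528 to 4.09 RPKM of Wnt2b. The part of fibroblasts or other cells in the BuSC value was not tested.

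**Figure D3:**
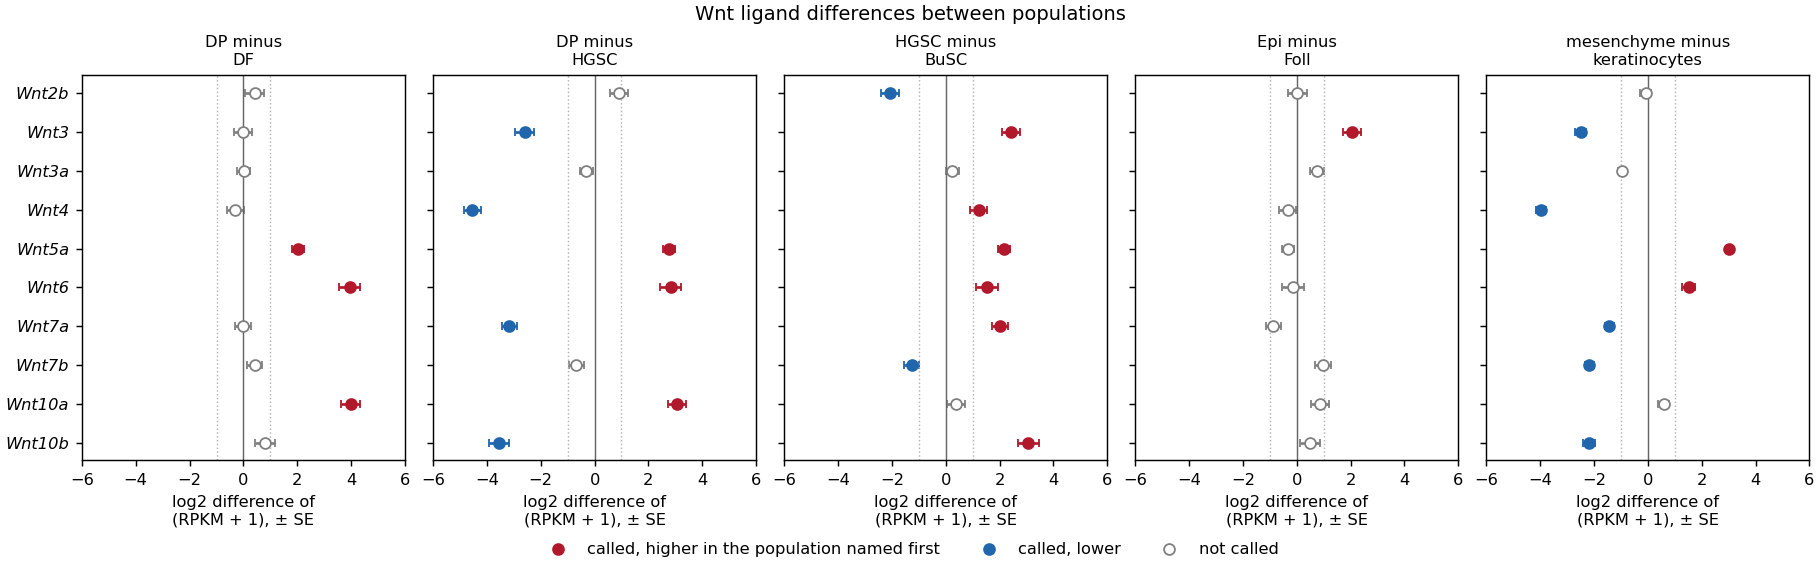
Log2 difference of (RPKM + 1) with its standard error for each ligand in 5 comparisons (limma); filled points were called, dotted lines mark the size threshold of 1 and positive values are higher in the population named first. DP minus DF has 3 called ligands, all higher in DP; HGSC minus BuSC has 6 higher and 2 lower; Epi minus Foll has Wnt3 alone.

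The comparison of the papilla with the surrounding dermis asks which ligands set the niche mesenchyme apart. Of the 10 ligands, 3 were higher in DP than in DF (Wnt5a, Wnt6 and Wnt10a), 0 were lower and 7 were not called, against 30.3% of all genes called (24.2% higher in DP and 6.13% higher in DF). The median log2 difference was 0.41 over the ligands and 0.47 over all genes. That shift of all genes was 0.08 with quantile scaling and 0 with median-of-ratios scaling, under both of which the same 3 ligands were called. Of the 7 not called in the main test, Wnt2b was the only one above 1 RPKM on average in either population. Voom on recovered reads called 4 ligands higher in DP and 0 lower.

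Between the papilla and the germ it touches, the ligands split in both directions. Wnt5a, Wnt6 and Wnt10a were higher in DP and Wnt3, Wnt4, Wnt7a and Wnt10b were lower in DP than in HGSC, so 7 of 10 were called, against 27.9% of all genes (12% higher in DP and 15.9% higher in HGSC). The ratios of means of the 4 lower ones were large, with Wnt4 at 0.196 RPKM in DP and 27.1 in HGSC and Wnt10b at 0.868 in DP and 23.5 in HGSC. All 7 ligands called in the main test had no overlap between DP and HGSC libraries. The share of all genes without such overlap was not computed, so that count is a description only. With median-of-ratios scaling 4 ligands were called higher and 4 lower in DP, and with voom 4 higher and 6 lower.

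Between the stem cell pools, 8 ligands were called, and 5 with a pseudocount of 5, under which Wnt4, Wnt6 and Wnt7b were not. Of the 10 ligands, 6 were higher in HGSC than in BuSC (Wnt3, Wnt4, Wnt5a, Wnt6, Wnt7a and Wnt10b), 2 were lower (Wnt2b and Wnt7b) and Wnt3a and Wnt10a were not called, against 5.85% of all genes called (2.03% higher in HGSC and 3.82% higher in BuSC). The median log2 difference was 1.38 over the ligands and 0.04 over all genes. Wnt5a averaged 26.7 ± 7.85 RPKM in HGSC and 5.49 ± 2.76 in BuSC (SD, n = 8 each; 2.16, SE 0.22, adjusted p = 1.93e-09). DF, whose markers were higher in BuSC than in HGSC, had 44.2 ± 10.4 RPKM of Wnt5a, above both. The part of fibroblasts in the BuSC value was not tested. Melanocyte markers summed to 41.2 to 176 in HGSC and 5.14 to 88.6 in BuSC; the part of those cells in the HGSC values was not tested.

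Between Epi and Foll, Wnt3 was the only ligand called of 10, against 7.79% of all genes (1.92% higher in Epi and 5.86% higher in Foll). Wnt3a, Wnt7a and Wnt7b had an adjusted p under 0.05 with log2 differences of 0.75, -0.87 and 0.97, below the size threshold. This count depended on single libraries: Wnt7a, Wnt7b or Wnt10a was also called when any of 10 libraries was left out, namely Epi zone 1 replicate 1, Epi replicate 2 of zones 3 and 4, and each Foll library except zone 2 replicate 1. Without the 4 libraries closest to another population it was 3, with Wnt7a at -1.22 (adjusted p = 0.0108) and Wnt10b at 1.38 (adjusted p = 0.00633) added. The share of all genes called rose as well in that fit, from 7.79% to 11%. The mean of the mesenchymal populations (DP and DF) against that of the 4 keratinocyte populations gave 2 ligands higher, Wnt5a (3.03) and Wnt6 (1.51), and 5 lower, Wnt3, Wnt4, Wnt7a, Wnt7b and Wnt10b, against 28.3% of all genes called (9.77% higher in mesenchyme and 18.5% higher in keratinocytes).

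**Figure D4:**
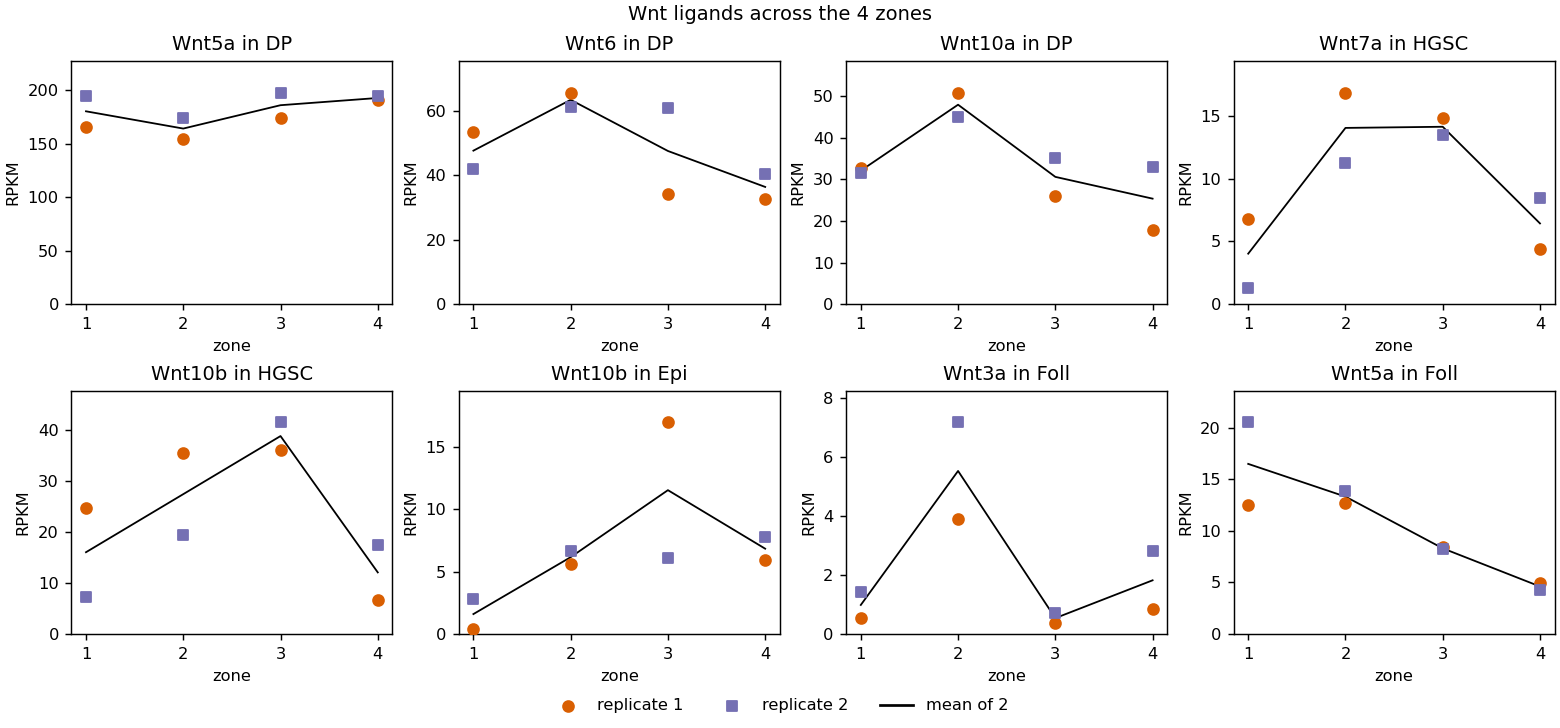
RPKM by zone (x axis) for 8 ligand and population pairs; circles and squares are replicates 1 and 2 and lines join their means. Wnt6 and Wnt10a are both highest in zone 2 of DP, Wnt7a is highest in zones 2 and 3 of HGSC, and Wnt5a is lower in zone 4 than in zone 1 in Foll; no zone difference was called.

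With 2 libraries per zone, no zone difference of a ligand was called. The moderated F test over the 4 zones of a population called 0 of 10 ligands in each of the 7 populations, against 0.43% of all genes in DP, 0.137% in HGSC, 0.359% in BuSC, 1.79% in Epi, 1.03% in Foll, 0.197% in DF and 1.01% in Neg. At an unadjusted p under 0.05 there were 7 of 70 tests (Wnt7b in DP, Wnt7a in HGSC and BuSC, Wnt10b in Epi, and Wnt3a, Wnt5a and Wnt10a in Foll), and voom on recovered reads called 0. The share of all genes at that unadjusted p was 5.04% in DP, 5.82% in HGSC, 8.45% in BuSC, 15.6% in Epi, 14.2% in Foll, 2.86% in DF and 7.11% in Neg. The interaction of population and zone called 0 of 10 ligands (0.317% of all genes), with 0 at an unadjusted p under 0.05 and 0 with voom. The trend over zones averaged over the 7 populations called 0 of 10 ligands by limma (0.257% of all genes), with Wnt6 lowest in p at -0.27 per zone step (SE 0.10, adjusted p = 0.286).

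Some profiles are given as values. In Foll, Wnt5a stood at 12.5 and 20.5 RPKM in zone 1, 12.7 and 13.9 in zone 2, 8.40 and 8.21 in zone 3 and 4.90 and 4.30 in zone 4. Zone 4 was therefore below zone 1 in both replicates, with a linear slope of -0.54 per zone step (SE 0.14, adjusted p = 0.0492) and an F test that was not called (adjusted p = 0.114). Hair germ markers in the same libraries summed to 163 and 281 RPKM in zone 1 and to 44.3 and 60.5 in zone 4, and their part in the slope was not tested. The differences of that slope from those of the other 6 populations had adjusted p of 0.267 or more.

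In Foll, Wnt3a was highest in zone 2, at 3.88 and 7.17 RPKM, against at most 2.80 in the other zones (F adjusted p = 0.0746). Without Foll zone 4 replicate 2, which left 1 library in that zone, the linear slope of Wnt3a was -0.23 per zone step (-0.07 in the main test). In HGSC, Wnt7a had 6.77 and 1.28 RPKM in zone 1, 16.8 and 11.2 in zone 2, 14.8 and 13.5 in zone 3 and 4.4 and 8.48 in zone 4, so that zones 2 and 3 lay above zones 1 and 4 in every library (F adjusted p = 0.429). In Epi, Wnt10b had 0.401 and 2.78 RPKM in zone 1 and 5.64 or more in every other zone (F adjusted p = 0.237). Its linear slope was 0.59 per zone step. Without the 4 libraries closest to another population, which left 1 library in Epi zone 3, that slope was 0.66. In DP, Wnt5a was even, with zone means between 164 and 193 RPKM.

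**Figure D5:**
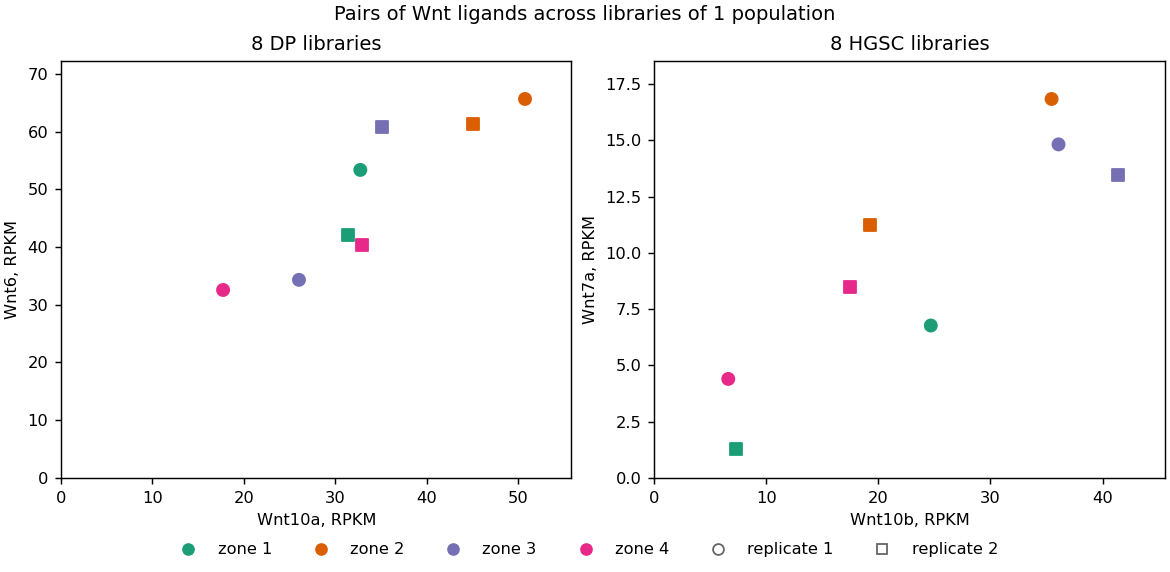
RPKM of Wnt6 against Wnt10a in the 8 DP libraries and of Wnt7a against Wnt10b in the 8 HGSC libraries; colours are zones and symbols are replicates. Libraries high for one ligand of a pair are high for the other, with Pearson r of 0.882 and 0.876 on log2(RPKM + 1).

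Within a population, levels of Wnt6 and Wnt10a varied together across the DP libraries. Wnt6 ran from 32.6 RPKM in zone 4 replicate 1 to 65.6 in zone 2 replicate 1, and the same libraries were the lowest (17.7) and highest (50.7) for Wnt10a. Over the 8 libraries Pearson's r was 0.882 on log2(RPKM + 1) and Spearman's rho 0.929 (exact permutation p = 0.000174 and 0.00223, two-sided; 0.0101 and 0.129 adjusted over the 58 pairs computed). Without the 2 libraries farthest from the median r was 0.829. Within zones, which are also the batches, r was 0.697 and the sign was the same in 4 of 4 zones. With median-of-ratios scaling r was 0.894, and the ratio of Wnt6 to Wnt10a stayed between 1.22 and 1.84. The correlation of Wnt5a was -0.45 with Wnt6 and -0.50 with Wnt10a, neither past the adjusted threshold. In Epi and Foll the Wnt6 and Wnt10a pair had r of -0.346 and -0.119.

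The next pair, Wnt7a and Wnt10b in HGSC, did not pass after adjustment, with r of 0.876 and rho of 0.810 (exact permutation p = 0.0036 and 0.0218; 0.104 and 0.631 adjusted over the 58 pairs), and r of 0.695 without the 2 farthest libraries. Within zones r was 0.957, with the same sign in 3 of 4 zones. After adjustment over the 58 pairs, the Pearson test of Wnt6 with Wnt10a in DP was the only one under 0.05.

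The genes whose profiles over the 56 libraries were most like those of the ligands are given as a description, since libraries of a population share most of what sets r. Wnt10a was closest to Tfap2c (r = 0.85) and Tfap2a (0.82), transcription factors of the ectoderm, and to the adrenergic receptor gene Adrb3 (0.82). Wnt5a was closest to the chromatin remodeller Chd5 (0.89), the basement membrane gene Frem1 (0.88) and Scube1 (0.87), and Wnt6 to the inositol transporter Slc5a3 (0.80), Snap91 (0.80) and Snhg11 (0.79). Of the ligands highest in HGSC, Wnt10b was closest to Kremen2 (0.82), which encodes a receptor for Dkk inhibitors, Cux1 (0.78) and Cnot6l (0.78). Wnt7a was closest to the transcription factor Ascl4 (0.85), the keratin gene Krt28 (0.83) and Golga7b (0.82). Wnt3 was closest to Lrp4 (0.89), Elmod1 (0.88) and Skint6 (0.88), and Wnt7b to Eppk1 (0.89), H60c (0.88) and Tns4 (0.87). Wnt4 was closest to S100a14 (0.95), the EGF receptor gene Egfr (0.95) and Crybg1 (0.95). Of the 9 ligands with an average of at least 5 RPKM in some population, Wnt2b had the lowest correlations, with Coch (0.65), Igf2 (0.62) and Kera (0.62).

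The rest of the pathway was read from 6 lists of 70 genes, of which 65 were tested. The papilla differed from DF in most genes that amplify the ligands' signal and in most that block it. R-spondins and their Lgr receptors, which keep Frizzleds at the cell surface, were higher in DP in 6 of 7 cases, led by Rspo3 (4.65), Rspo2 (2.99), Lgr4 (2.78) and Rspo1 (1.99), and in 4 of 7 with quantile or median-of-ratios scaling. Secreted inhibitors were higher in DP in 7 of 13 cases and lower in 1, led by Notum (4.10), which removes the ligands' lipid, Sostdc1 (3.91), Wif1 (3.84) and Sfrp2 (3.52). Frizzled receptors and co-receptors were higher in 6 of 16 and lower in 1, led by Ptk7 (2.31) and Lrp5 (2.17), with 4 higher and 4 lower under median-of-ratios scaling. Of the genes for processing and secretion, 2 of 10 were higher, the glypican Gpc6 (2.62) and Porcn (1.03), which encodes the enzyme that attaches the lipid. With median-of-ratios scaling 1 of these 10 was higher and 2 were lower. Transcription factors and targets were higher in 8 of 15 and lower in 1, led by Lef1 (4.72), which was also a sort reporter, and Tcf7 (2.83). With median-of-ratios scaling 5 of these 15 were higher and 1 was lower. Of the 4 other Wnt ligands tested, Wnt5b (1.09) was higher, and 0 were called with quantile scaling, median-of-ratios scaling or voom. The shares of the main test stand beside 24.2% of all genes higher in DP.

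Between DP and HGSC, 1 of 16 receptors was higher in DP, 3 were lower and 12 were not called. The shares of all genes were 12% higher and 15.9% lower in DP. Fzd6 averaged 0.392 ± 0.186 RPKM in DP and 18.6 ± 7.89 in HGSC (SD, n = 8 each; -3.73), Fzd7 8.09 ± 3.00 in DP and 85.4 ± 8.80 in HGSC (-3.31), and Fzd5 was also lower in DP (-2.45), while the co-receptor Ptk7 was higher (1.94). Rspo3 averaged 266 ± 42.9 in DP and 0.177 ± 0.192 in HGSC (7.83), and the R-spondin receptor Lgr5 0.511 ± 0.383 in DP and 61.4 ± 16.6 in HGSC (-5.36). Inhibitors were higher in DP in 6 of 13 cases and lower in 0, led by Dkk2 (7.90) and Sfrp2 (4.84). Transcription factors and targets were higher in DP in 6 of 15 cases and lower in 7, and higher in 6 and lower in 5 with median-of-ratios scaling.

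Between HGSC and BuSC, 7 of 13 inhibitors were not called and the median log2 difference of the list was -0.02, against 0.04 over all genes. Of the rest, 5 were lower in HGSC, including Dkk2 (-4.04), Sfrp1 (-3.68) and Sostdc1 (-1.49), and Wif1 was higher (2.37). Dkk2 averaged 0.440 ± 0.426 RPKM in HGSC and 28.4 ± 26.1 in BuSC, and 40.5 ± 4.34 in DF, whose markers were present in BuSC. The part of fibroblasts in the BuSC value of Dkk2 was not tested. Of 15 transcription factors and targets, 4 were higher in HGSC, Tnfrsf19 (2.14), Lef1 (1.71), Myc (1.44) and Tcf7 (1.20), and 0 were lower. Of 16 receptors, Fzd10 (2.00) was higher and Ror1 (-1.31) lower in HGSC, and of 10 processing genes Gpc6 (-2.52) was lower. Of 7 R-spondin and Lgr genes, Rspo1 (-2.96) and Rspo4 (-1.59) were lower in HGSC, and none of the other Wnt ligands tested (Wnt5b, Wnt9a, Wnt11 and Wnt16) had a limma adjusted p under 0.565. In Epi against Foll, targets were lower in 3 of 15 cases (Lef1 at -1.64, Nkd1 at -1.48 and Tcf7 at -1.15), receptors were higher in 1 of 16 (Fzd10, 1.27) and lower in 3, led by Fzd7 (-1.67), and inhibitors were higher in 1 of 13 (Sfrp1, 1.39) and lower in 2, led by Dkk2 (-2.17).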

How the data were processed

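Bulk RNA-seq was deposited for 7 sorted populations from 4 zones in 2 biological replicates (56 libraries). The deposited table holds RPKM per gene symbol as made by the authors. Per the submitters' processing notes, the build and tools were mm10, STAR 2.4.0, featureCounts, limma, edgeR and DESeq2. Library strandedness is not given in the sources used here. Whole reads were recovered from the RPKM steps for 99.98% of 22233 genes (tolerance 0.02 reads), giving 3.24 to 87.8 M reads per library (median 14.7 M).

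Genes with at least 1 RPKM in at least 2 libraries were tested with limma 3.58.1 (R 4.3.3) on log2(RPKM + 1), with a mean for each of the 28 population-by-zone groups, a variance trend and 28 residual degrees of freedom. P-values were Benjamini-Hochberg adjusted over all 16731 genes tested. Differences are on the log2(RPKM + 1) scale, which understates changes of low genes. The fit was tested on simulated data. Alternatives were pseudocounts of 0.1 and 5, no filter, quantile and median-of-ratios scaling, voom on recovered reads, the replicate number as a block, and leaving out libraries. The main fit did not pair samples by replicate number, and whether replicate numbers mark the same animals across groups is not given. All 378 correlations between groups of the replicate 1 minus replicate 2 differences lay between -0.056 and 0.087. Such correlations cannot show whether animals were shared, since noise of single libraries also lowers them. Whether the replicates were single or pooled animals is not given, so p-values measure the spread between these samples. All 10 ligands are named; the other named genes are up to 4 per pathway list and comparison with the largest difference among those called, and the 3 genes most correlated with each ligand. The ligands and lists were chosen with earlier results of these data known.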

Additional observations from a re-analysis of the deposited data

Results flagged for a closer look

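In 7 of the 51 ligand and population pairs averaging at least 1 RPKM, the highest of the 8 libraries stood far from the others by Dixon's ratio of gap to range. For normally distributed values, chance flags about 1 in 20 such groups, or 2.55 here. The ratio was taken on untransformed RPKM, whose distribution was not tested, so 7 cannot be weighed against 2.55. Wnt2b was 29.7 RPKM in BuSC zone 4 replicate 1, with the next library at 12.7. Wnt3 was 16.9 RPKM in HGSC zone 3 replicate 2 (next 8.43) and 3.68 in Neg zone 3 replicate 2 (next 1.72). Wnt6 was 13.2 RPKM in HGSC zone 1 replicate 1 (next 7.45) and 15.5 in Foll zone 3 replicate 1 (next 7.35). Epi zone 3 replicate 1 was the high library for both Wnt5a (20.5 RPKM, next 9.67) and Wnt10b (16.98 RPKM, next 7.78), and its immune markers summed to 180 RPKM, against 5.16 to 81.6 in the other Epi libraries.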

How the results depend on the processing

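Of 500 values of the ligands' population differences under an alternative, 0 reversed. Calls were lost for Wnt4 between HGSC and BuSC with pseudocounts of 0.1 and 5, for Wnt6 and Wnt7b there with 5, and for Wnt7a and Wnt7b between mesenchyme and keratinocytes with 5; the cause was not tested. Ligands called between HGSC and BuSC were 5 instead of 8 with a pseudocount of 5. Voom called 4 ligands higher in DP than in DF, 4 higher and 6 lower in DP than in HGSC, and 2 higher and 6 lower in mesenchyme. Scaled levels and ratios with a library left out were added after seeing the data. Between Epi and Foll, 2 ligands were called instead of 1 with a pseudocount of 0.1, quantile or median-of-ratios scaling, and 3 with voom. Leaving out single libraries gave 1 to 2. Without the 4 libraries closest to another population, an alternative chosen after seeing the data, it was 3, against 11% of all genes. The zone test of Wnt3a in Foll reversed in slope with quantile scaling, to 0.033 per zone step (-0.07 in the main test); the cause was not tested. Zone tests called 1 ligand in HGSC with a pseudocount of 5 and 1 in Foll with quantile scaling. Fits without some libraries left 1 library in a zone, and their zone calls of ligands in Epi and Foll varied with the libraries kept. The fit with the replicate number as a block changed no count of ligands called (3 for DP against DF), and its counts of all genes stayed within 1.5 times. With 2 libraries per zone, small zone differences were not detectable.

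All genes called moved as follows. With a pseudocount of 5 they numbered 2104 for DP against DF (5067 in the main test), 2492 for DP against HGSC (4666), 376 for HGSC against BuSC (978), 378 for Epi against Foll (1303) and 2316 for mesenchyme against keratinocytes (4734). DP against DF gave 3100 with quantile and 3130 with median-of-ratios scaling. Voom gave 1601 for HGSC against BuSC and 7761 for mesenchyme against keratinocytes. For zones, the main counts were 72 in DP, 23 in HGSC, 60 in BuSC, 299 in Epi, 173 in Foll, 33 in DF, 169 in Neg and 53 for population by zone. A pseudocount of 0.1 gave 35 in BuSC, 450 in Epi, 77 in Neg and 26 for population by zone, and one of 5 gave 41 in HGSC, 150 in BuSC, 71 in DF and 287 in Neg. No filter gave 151 in DP, 61 in HGSC, 213 in BuSC, 94 in DF, 407 in Neg and 192 for population by zone. Quantile scaling gave 39 in BuSC, 141 in Epi, 101 in Foll and 103 in DF, and median-of-ratios scaling 10 in HGSC, 98 in Foll and 100 in DF. Voom gave 22 in DP, 11 in HGSC, 226 in BuSC, 125 in Epi, 38 in Foll, 57 in Neg and 99 for population by zone. Leaving out single libraries gave 60 to 185 in DP, 18 to 73 in HGSC, 41 to 246 in BuSC, 186 to 1130 in Epi, 73 to 770 in Foll, 29 to 54 in DF, 205 to 276 in Neg and 40 to 108 for population by zone. Without the 4 libraries there were 1361 in Epi, 1321 in Foll and 298 for population by zone.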
